A study of Mus musculus with 40 samples.

Results

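The genes described here are 10 markers by which classes of inhibitory interneurons are told apart: the calcium-binding proteins Pvalb and Calb2, the neuropeptides Sst, Cort, Npy, Vip, Cck and Tac1, the transcription factor Lhx6 and the extracellular glycoprotein Reln. They were taken by gene symbol, with no threshold on a measured value, and all 10 were found among the 47643 genes of the count tables and had enough reads to be tested in every comparison. RNA-seq gave their levels in hippocampus and frontal cortex of wild-type Swiss Webster mice, an outbred stock, that were raised germ-free, fed control chow and colonized with human stool. Each of 20 cohorts of mice received the stool of 1 of 10 donors, given either before (pre-KD) or during (post-KD) treatment with a clinical ketogenic diet (KD), so that the mice themselves ate no KD and the controls were colonized too. Brains were dissected 4 days after colonization and the tissue of 6 mice was pooled for a library, so there were 10 libraries in each of 4 groups: pre-KD and post-KD hippocampus, and pre-KD and post-KD frontal cortex. The replicate is therefore the cohort, both regions of a cohort come from the same mice, and how far single mice of a pool differ was not measured. In bulk tissue, fewer cells of a class and less RNA per cell cannot be told apart.

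Inhibitory interneurons release GABA onto nearby neurons and restrain the firing of cortical and hippocampal circuits. Those born in the medial ganglionic eminence depend on Lhx6 and mature into fast-spiking Pvalb cells, which target cell bodies and axons, or Sst cells, which target dendrites, whereas Vip cells come from the caudal ganglionic eminence and mostly inhibit other interneurons. Several of the markers are also made elsewhere: Cck in many pyramidal neurons, Tac1 in striatal projection neurons, and Reln in Cajal-Retzius cells.

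Hippocampal libraries held 1140756 to 1947416 counted reads, and frontal cortical ones 1188447 to 2095352. The 7 markers of hippocampal excitatory neurons summed to between 877 and 1363 CPM (counts scaled to library size and to 1e6 reads) in hippocampal libraries and to between 485 and 848 CPM in frontal cortical ones. Of 8 markers of cortical excitatory neurons, 3 were called higher in frontal cortex and 2 higher in hippocampus. The 8 libraries of the cohorts of donors 9 and 10 held 139 to 276 reads on 4 Y-linked genes and 3.40 to 27.2 CPM of Xist, and the other 32 held 0 to 27 reads and 450 to 729 CPM, although the methods describe female recipients. Every fitted comparison was therefore also made in edgeR without these 8 libraries. Levels and correlations were not recomputed without them.

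Per kilobase of exon, the peptide genes Sst, Cck and Npy stood highest in both regions. In the hippocampus Sst averaged 357 ± 94.0 CPM per kb (SD, n = 20), Cck 309 ± 47.0 and Npy 176 ± 64.6 CPM per kb. The calcium-binding proteins followed, with Pvalb at 86.7 ± 35.7 and Calb2 at 28.3 ± 17.3 CPM per kb. Cort, a peptide related to somatostatin, was at 15.8 ± 13.4 CPM per kb. Vip, Tac1, Reln and Lhx6 averaged below 10 CPM per kb there, down to 0.962 ± 1.05 for Lhx6. In the hippocampal order each gene overlapped its neighbour in range over the 20 libraries.

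In the frontal cortex Npy was first, at 365 ± 94.4 CPM per kb (SD, n = 20), followed by Sst at 354 ± 56.6 and Cck at 322 ± 45.3 CPM per kb. Pvalb, at 89.9 ± 25.5 CPM per kb, did not overlap Cck in range, and every other pair of neighbours overlapped. Tac1 stood sixth, at 23.4 ± 7.93 CPM per kb, against eighth in the hippocampus at 3.89 ± 3.37 CPM per kb. These levels depend on the length used: with the longest annotated transcript, Cck was first in both regions, at 505 and 526 CPM per kb. The sources name both a whole-transcript and a 3′-end library kit, and levels per length would have no meaning for a 3′-end kit.

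**Figure D1:**
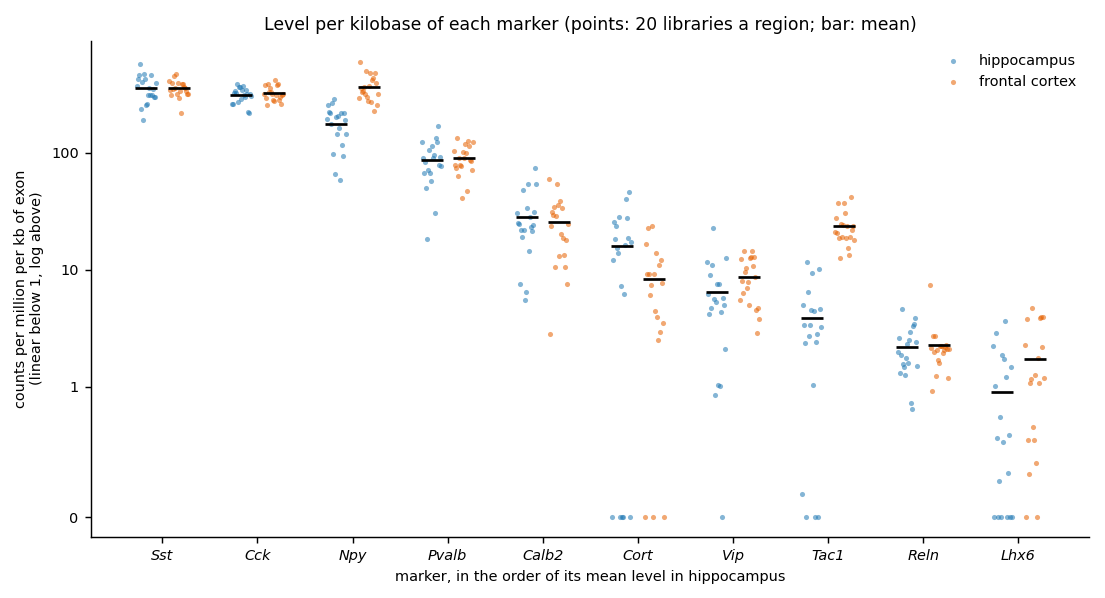
Each point is the level of a marker in 1 library, in CPM per kilobase of exon (vertical axis, linear below 1 and logarithmic above), for 20 hippocampal (blue) and 20 frontal cortical (orange) libraries, and black bars are means. Npy and Tac1 sit higher in frontal cortex, with means of 365 against 176 and 23.4 against 3.89 CPM per kb.

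The first comparison set the 2 regions of each cohort side by side. Of the 10 markers, Tac1 and Npy were called higher in frontal cortex at an adjusted p below 0.05, and 0 were called higher in hippocampus (edgeR quasi-likelihood test with a term for each of 20 cohorts). Among all 19422 genes tested, 1.98% were called higher in frontal cortex and 0.87% higher in hippocampus. The median log2 difference, hippocampus minus frontal cortex, was -0.09 over the 10 markers and -0.17 over all genes tested.

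Tac1 encodes the precursor of substance P and neurokinin A. Its level ranged from 0 to 39.8 CPM with a median of 11.2 over the 20 hippocampal libraries, 3 of which held no read of it, and from 42.4 to 141 CPM with a median of 73.2 over the 20 frontal cortical libraries. The regions did not overlap, which was true of 14 of 19422 genes (0.0721%), and frontal cortex was higher in 20 of 20 cohorts. The fitted log2 difference, hippocampus minus frontal cortex, was -3.00 (SE 0.27, adjusted p = 2.31e-26 in edgeR), or 7.99-fold lower in hippocampus. Over the alternatives other than leaving out single donors, the adjusted p ranged from 5.52e-26 to 2.68e-09, and without donors 9 and 10 the log2 difference was -3.12.

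Markers of striatal projection neurons moved with Tac1. All 7 of those tested, Tac1 itself not counted, were called higher in frontal cortex, among them the dopamine receptor Drd1 (log2 difference -2.88, SE 0.24, adjusted p = 4.76e-30 in edgeR) and the opioid peptide gene Penk (-3.32, SE 0.16, adjusted p = 1.61e-91). Summed over the list, they ranged from 57.4 to 342 CPM in hippocampal and from 580.3 to 1285 CPM in frontal cortical libraries. Drd2, a defining marker of the same list, held 5 reads over all 40 libraries and was too low to test. For correlations the list was summed without Penk too. Across the 20 frontal cortical libraries, Tac1 and that sum gave r = 0.41 (permutation p = 0.0733, adjusted over 10 markers 0.483) and rho = 0.29 (permutation p = 0.216, adjusted 0.432). Without the 2 libraries farthest from the median r was 0.08. Within conditions r was 0.58 (pre-KD, n = 10) and 0.16 (post-KD, n = 10). What part carried-over striatal RNA had in the regional difference was not tested.

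Npy encodes neuropeptide Y, which is made by neurogliaform cells and by many Sst cells. Its level ranged from 33.04 to 161 CPM with a median of 108 in hippocampal libraries, and from 129 to 337 CPM with a median of 195 in frontal cortical ones. The highest hippocampal libraries overlapped the lowest frontal cortical ones, yet within cohorts frontal cortex was higher in 20 of 20. The fitted log2 difference was -1.11 (SE 0.13, adjusted p = 3.26e-15 in edgeR, 1.34e-15 to 8.46e-09 over the alternatives), or 2.16-fold lower in hippocampus, and -1.14 without donors 9 and 10.

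The other 8 markers did not pass the test between regions. Sst, which shares many cells with Npy, averaged 257 ± 67.8 CPM (SD, n = 20) in hippocampus and 255 ± 40.8 CPM in frontal cortex, a log2 difference of -0.02 (SE 0.10) that turned to 0.02 with DESeq2 or RLE size factors. Cck averaged 404 ± 61.4 and 421 ± 59.1 CPM, a log2 difference of -0.06 (SE 0.09). For these abundant genes the standard errors are small, and the regions differed by less than the spread between libraries.

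In edgeR, Vip had the smallest p of the markers not called (log2 difference -0.74, SE 0.37, p = 0.0441, adjusted p = 0.436 in edgeR), with 21.8 ± 17.9 CPM (SD, n = 20) in hippocampus and 29.7 ± 12.6 CPM in frontal cortex. Lhx6 averaged 4.62 ± 5.05 and 8.38 ± 7.24 CPM and was without a read in 6 hippocampal and 2 frontal cortical libraries. Its log2 difference was -1.46 (SE 0.86, p = 0.0896, adjusted p = 0.593) in edgeR and -1.45 (SE 0.60, p = 0.0149, adjusted p = 0.122) in DESeq2. In edgeR without the cohort terms it was -0.83 (SE 0.64, p = 0.197, adjusted p = 0.599). Pvalb, Calb2, Cort and Reln had adjusted p between 0.82 and 0.98.

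**Figure D2:**
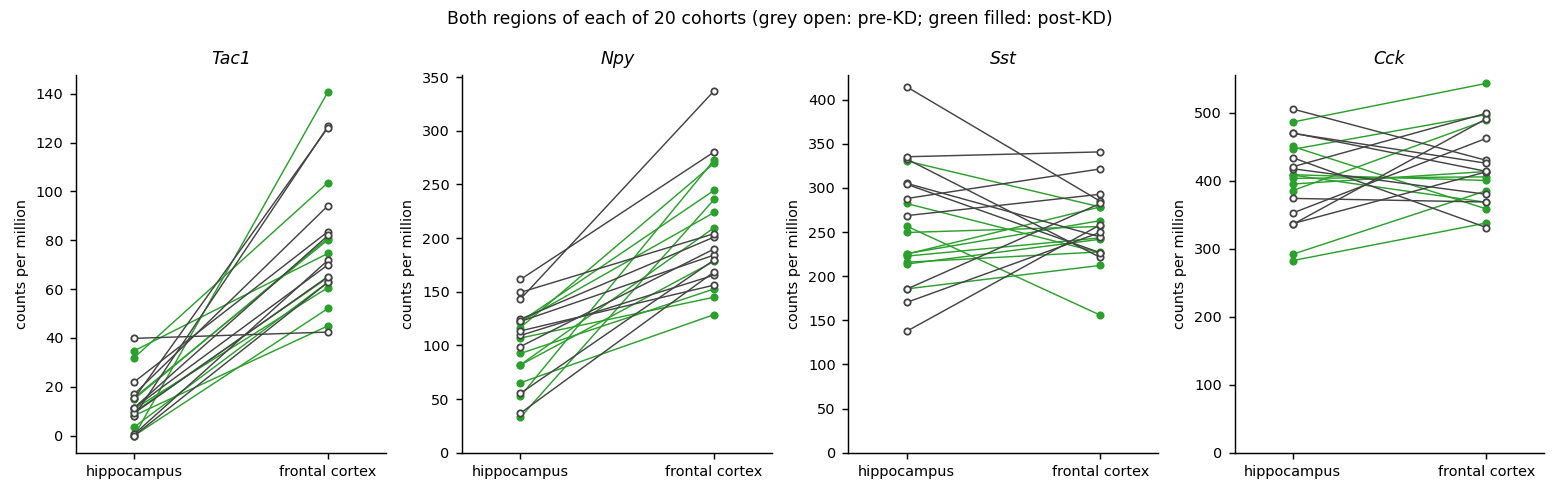
CPM of Tac1, Npy, Sst and Cck (vertical axes) in the hippocampus and frontal cortex of each of 20 cohorts, joined by a line, with pre-KD cohorts in grey with open points and post-KD cohorts in green with filled points. Every line of Tac1 and Npy rises to frontal cortex, while those of Sst and Cck run in both directions.

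The promoters of peptide genes are a classical target of cyclic AMP signalling through the response element TGACGTCA and its half-site TGACG. Upstream stretches of the 2 genes that differed between regions, Tac1 and Npy, are shown with those of Cck and Vip, which were not called. They are from RefSeq's mouse table (GRCm38.p6), 5′ to 3′ on the gene's strand, end just before the gene model's first base, and have each half-site on either strand in capitals.
Tac1, chr6:7554811-7554878, plus strand: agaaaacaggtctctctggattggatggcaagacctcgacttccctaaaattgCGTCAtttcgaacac
Npy, chr6:49822560-49822709, plus strand: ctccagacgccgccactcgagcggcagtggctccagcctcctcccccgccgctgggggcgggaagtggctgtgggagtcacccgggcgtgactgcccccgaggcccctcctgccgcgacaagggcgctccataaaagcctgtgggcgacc
Cck, chr9:121495695-121495844, minus strand: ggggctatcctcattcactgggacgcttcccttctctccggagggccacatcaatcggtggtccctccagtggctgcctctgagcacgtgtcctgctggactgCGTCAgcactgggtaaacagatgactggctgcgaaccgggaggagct
Vip, chr10:5639068-5639217, plus strand: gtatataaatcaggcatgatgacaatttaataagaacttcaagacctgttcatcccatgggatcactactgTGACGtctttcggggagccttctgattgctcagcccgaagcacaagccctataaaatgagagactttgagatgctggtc
Of the 10 markers, 9 had an entry and Calb2 had none. Over the 250 bases before the RefSeq start, the half-site was present in Sst, Cort, Vip, Cck and Tac1, against 17.8% of 32851 promoters, and the whole element, which contains the half-site, only in Sst of the 9, against 1.55%. Tac1 and Npy thus differed from each other in holding the half-site although both were higher in frontal cortex. A match describes letters in this window and not a bound site.

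Other interneuron genes also differed between the regions. Of 40 listed and tested, 3 were called higher in hippocampus and 9 higher in frontal cortex, against 0.87% and 1.98% of all genes tested. The median log2 difference was -0.41, against -0.17 over all genes tested. The 3 higher in hippocampus included Prox1 and Nr2f2, transcription factors of interneurons from the caudal ganglionic eminence, of which Prox1 is also made by dentate granule cells. Prox1 averaged 81.1 ± 28.8 CPM (SD, n = 20) in hippocampus and 21.3 ± 11.7 CPM in frontal cortex (log2 difference 2.01, SE 0.24, adjusted p = 9.55e-15 in edgeR). Nr2f2 averaged 118 ± 44.2 and 36.7 ± 12.4 CPM (1.67, SE 0.18, adjusted p = 5.42e-17). Nos1, the neuronal nitric oxide synthase, averaged 59.0 ± 27.0 and 32.8 ± 11.9 CPM (0.83, SE 0.24, adjusted p = 0.0227).

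Among the 9 that were higher in frontal cortex, Penk had the largest fold of those averaging at least 20 reads a library, 10.02-fold, and stands on the striatal list too. Syt2, a synaptotagmin of Pvalb terminals, averaged 18.8 ± 10.5 CPM (SD, n = 20) in hippocampus and 48.0 ± 20.8 CPM in frontal cortex (log2 difference -1.44, SE 0.31, adjusted p = 0.000319 in edgeR), while Pvalb itself averaged 90.2 ± 37.1 and 93.6 ± 26.6 CPM. Lamp5, a marker of neurogliaform cells that upper-layer pyramidal neurons also express, averaged 40.4 ± 24.6 and 89.0 ± 22.5 CPM (-1.33, SE 0.21, adjusted p = 2.86e-08).

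Of 19 receptors and partners of the peptides and of reelin, 17 were tested. Against 0.87% of all genes called higher in hippocampus and 1.98% higher in frontal cortex, 1 was called. This was Npy2r, a presynaptic receptor for neuropeptide Y, which was higher in hippocampus, at 22.4 ± 11.4 CPM (SD, n = 20) against 4.01 ± 5.27 CPM (log2 difference 3.59, SE 0.63, adjusted p = 2.10e-06 in edgeR), whereas Npy itself was higher in frontal cortex. The median log2 difference over the 17 was -0.08, against -0.17 over all genes tested.

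The second comparison asked whether the post-KD microbiota went with other levels of the markers than the pre-KD microbiota in the hippocampus. In edgeR 0 of the 10 markers passed an adjusted p of 0.05, and 0 in DESeq2 or limma-voom. Of the 17529 genes tested, 0.0057% passed. At an unadjusted p below 0.05, the threshold that the study used, 1 marker passed in edgeR, against 10.1% of all genes tested, a share no higher than the background in that fit. DESeq2 put 1 of the 10 markers, Calb2, and 599 of the 17529 genes under it. With limma-voom it was 2 of the 10, Calb2 and Sst (p = 0.0387, adjusted p = 0.901), and 962 of the 17529 genes. In these fits the share of markers was above that of all genes, but rested on 1 or 2 markers. The median log2 change, post-KD minus pre-KD, was -0.04 over the 10 markers and -0.01 over all genes tested.

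The marker under the unadjusted threshold was Calb2, which encodes calretinin, a calcium-binding protein of interneurons that mostly target other interneurons. Its level ranged from 9.55 to 82.8 CPM with a median of 37.9 in the 10 pre-KD libraries and from 25.0 to 128 CPM with a median of 51.6 in the 10 post-KD libraries. The groups overlapped over most of their range, and 8 of 10 donors were higher post-KD. The fitted log2 change was 0.76 (SE 0.34, p = 0.0274, adjusted p = 0.338 in edgeR). Leaving out both libraries of a donor in turn moved it between 0.47 and 1.04, with unadjusted p from 0.00382 to 0.193. Without donors 9 and 10 the change was 0.21 (p = 0.589 in edgeR). Their hippocampal libraries were the 2 lowest pre-KD (9.55 and 11.1 CPM) and the 2 highest post-KD (128 and 94.8 CPM). Of the lists that share Calb2, the other 5 thalamic and habenular markers summed to between 50.3 and 207 CPM pre-KD and between 56.6 and 140 CPM post-KD, and 0 of them passed either threshold. The 4 other olfactory bulb markers summed to between 16.2 and 114 CPM pre-KD and between 19.7 and 159 CPM post-KD, the 4 other Cajal-Retzius markers to between 1.73 and 34.2 and between 5.80 and 36.9 CPM, and 0 of these passed either. Their part in the Calb2 values was not tested.

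Pvalb, which encodes parvalbumin, ranged from 19.04 to 127 CPM with a median of 71.7 pre-KD and from 31.9 to 177 CPM with a median of 97.3 post-KD. The groups overlapped, 7 of 10 donors were higher post-KD, and the log2 change of 0.45 (SE 0.25, p = 0.0768, adjusted p = 0.637 in edgeR) did not pass. Leaving out single donors moved it between 0.30 and 0.58, with unadjusted p from 0.0247 to 0.228. The recipients of donor 6 had the lowest pre-KD level and the largest difference, 2.68 on the log2 scale, and those of donor 4 had the most negative one, -1.41.

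The peptides Npy, Vip and Sst had lower means post-KD, and none of the 3 passed. Npy ranged from 36.9 to 161 CPM with a median of 118 pre-KD and from 33.04 to 122 CPM with a median of 87.3 post-KD, and was lower post-KD in 8 of 10 donors (log2 change -0.36, SE 0.24, adjusted p = 0.806 in edgeR), with changes from -0.50 to -0.25 when single donors were left out. Vip ranged from 3.18 to 77.4 CPM with a median of 20.1 pre-KD and from 0 to 42.5 CPM with a median of 15.9 post-KD, and was lower in 7 of 10 donors (log2 change -0.80, SE 0.57, adjusted p = 0.865). Both sets of libraries overlapped between conditions. Sst ranged from 138 to 415 CPM with a median of 296 pre-KD and from 186 to 330.5 CPM with a median of 225 post-KD, and was lower in 7 of 10 donors (log2 change -0.20, SE 0.16, adjusted p = 0.959). Leaving out single donors gave Sst changes from -0.32 (without donor 5) to -0.10 (without donor 4), and limma-voom gave -0.33 (unadjusted p = 0.0387). The pre-KD libraries of Sst spread more widely than the post-KD ones, with a coefficient of variation of 31.3% against 17.1%.

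The 7 striatal markers tested all had lower fitted levels in post-KD hippocampus, with a median log2 change of -0.56. In edgeR 0 of the 7 passed the adjusted and 1 the unadjusted threshold, the latter against 10.1% of all genes tested. The sum of the 7 averaged 211 ± 69.7 CPM (SD, n = 10) pre-KD, from 124 to 342 CPM, and 152 ± 54.5 CPM post-KD, from 57.4 to 257 CPM. The striatal covariate was the mean log2 CPM of the striatal list without Tac1 and Penk and with Drd2. With it the log2 change of Vip was -0.49 in place of -0.80 and that of Npy -0.23 in place of -0.36. With the same covariate the change of Sst was -0.13, that of Calb2 was 0.83 and that of Pvalb was 0.45. The change of Vip was also -0.51 without donor 7, whose pre-KD library was the highest, and -1.23 without donors 9 and 10.

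Cck, Tac1 and Lhx6 had log2 changes between -0.08 and -0.01, and Cort and Reln of 0.24 and 0.15. The precision differed widely between them. Cck had an SE of 0.14 on the log2 scale, whereas those of Tac1, Cort and Lhx6 were 0.77, 0.86 and 1.17. Leaving out single donors moved the change of Cort between 0.11 and 0.47.

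**Figure D3:**
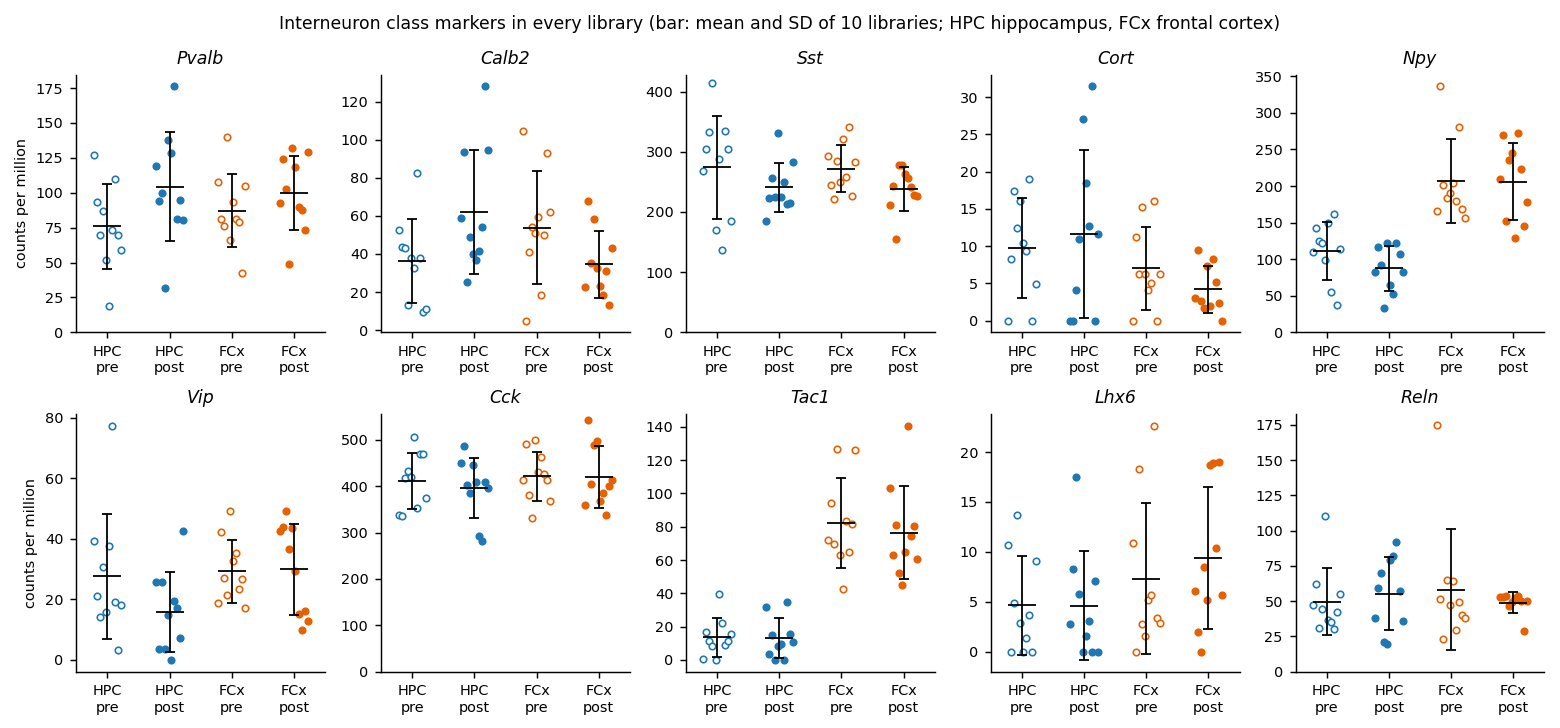
CPM of each marker (vertical axes, each from 0) in each of 10 libraries of pre-KD (open) and post-KD (filled) hippocampus (HPC, blue) and frontal cortex (FCx, orange), with the mean and SD as black bars. Pre-KD and post-KD libraries overlap for each of the 10 markers in both regions, and the regions do not overlap for Tac1.

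Of 38 other interneuron genes tested in the hippocampus, 0 passed the adjusted threshold in edgeR. At the unadjusted one 5 passed, 2 of them higher post-KD, against 10.1% of all genes tested. The 3 with the smallest p were Chodl, a marker of long-range Sst cells that averaged 2.65 reads a library (adjusted p = 0.085 in edgeR), Crh, the corticotropin-releasing hormone gene (log2 change 1.24, SE 0.46, adjusted p = 0.131), and Prox1 (-0.57, SE 0.25, adjusted p = 0.324). Of 15 receptors and partners tested, 0 passed either threshold in edgeR, and the smallest p were those of Tacr1, Npy5r and Vipr2, each averaging under 3 reads a library.

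The same comparison in the frontal cortex also gave 0 of 10 markers at an adjusted p of 0.05 in edgeR, DESeq2 and limma-voom, where 0.0056% of 17873 genes passed in edgeR. At the unadjusted threshold 1 marker passed in edgeR, again Calb2, against 9.68% of all genes, and 0 passed in DESeq2 or limma-voom. The median log2 change was -0.06 over the markers and 0.01 over all genes tested.

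Calb2 was lower post-KD here. It ranged from 4.92 to 105 CPM with a median of 52.8 in pre-KD libraries and from 13.1 to 67.8 CPM with a median of 31.8 in post-KD libraries. The post-KD range lay within the pre-KD range, and 7 of 10 donors were lower post-KD (log2 change -0.64, SE 0.30, p = 0.036, adjusted p = 0.437 in edgeR). The donors disagreed strongly, from a difference of -2.72 on the log2 scale for donor 9 to 3.49 for donor 2. Leaving out single donors gave changes from -0.94 (without donor 2) to -0.42 (without donor 9), with unadjusted p from 0.00145 to 0.173 in edgeR. The change was -0.41 (p = 0.224) without donors 9 and 10 and -0.21 (p = 0.582) with limma-voom. With the donor as a replicate block p was 0.0512 in edgeR and 0.114 in DESeq2. With the striatal level as a covariate the change was -0.45 (p = 0.118). Across the 20 frontal cortical libraries, Calb2 and the summed striatal list without Penk gave r = -0.38 (permutation p = 0.0967, adjusted over 10 markers 0.483) and rho = -0.48 (permutation p = 0.0361, adjusted 0.29). The r was -0.34 without the 2 libraries farthest from the median, -0.28 within pre-KD and -0.66 within post-KD libraries. The relation did not pass after adjustment.

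Sst was lower post-KD in 8 of 10 donors, with 221 to 341 CPM and a median of 270.2 pre-KD and 156 to 278 CPM with a median of 243 post-KD. The groups overlapped and the log2 change of -0.19 (SE 0.12, p = 0.109, adjusted p = 0.73 in edgeR) did not pass. Pvalb was higher post-KD in 8 of 10 donors, with 42.6 to 140 CPM and a median of 81.3 pre-KD and 49.2 to 132 CPM with a median of 97.8 post-KD (0.19, SE 0.18, adjusted p = 0.944). Leaving out single donors moved the change of Pvalb between 0.10 (without donor 5) and 0.37 (without donor 4), with unadjusted p from 0.0498 to 0.601 in edgeR.

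Npy and Cck, the most precisely measured besides Sst, had log2 changes of -0.01 (SE 0.14) and -0.01 (SE 0.11), with means of 207 ± 57.5 (SD, n = 10) pre-KD and 206 ± 52.2 CPM post-KD for Npy. Both changed sign under some alternatives. Tac1 averaged 82.4 ± 27.0 CPM (SD, n = 10) with pre-KD and 76.5 ± 28.0 CPM with post-KD stool, a log2 change of -0.11 (SE 0.20). Vip, Lhx6, Cort and Reln had log2 changes of 0.02, 0.37, -0.73 and -0.24, with adjusted p between 0.958 and 0.998 in edgeR. Leaving out single donors moved the change of Cort between -0.94 (without donor 7) and -0.45 (without donor 4). The change of Lhx6 ranged from 0.11 (without donor 9) to 0.80 (without donor 3) when single donors were left out. It was 0.83 and 0.85 with the donor as a replicate block in edgeR and DESeq2, and 0.057 without donors 9 and 10.

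**Figure D4:**
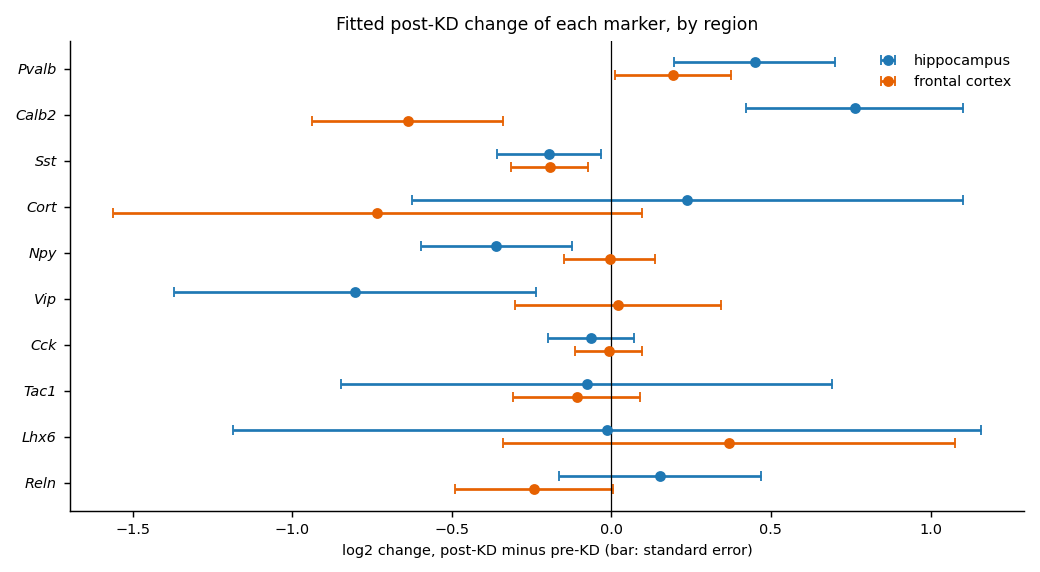
Fitted log2 change, post-KD minus pre-KD (horizontal axis), of each marker in hippocampus (blue) and frontal cortex (orange), with bars of 1 standard error. Calb2 lies at 0.76 in hippocampus and -0.64 in frontal cortex, and 0 of the 20 changes passed the adjusted threshold.

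Of 40 other interneuron genes tested in frontal cortex, 0 passed the adjusted threshold and 2 the unadjusted one, the latter against 9.68% of all genes tested. The 2 were Crh (log2 change 0.73, SE 0.33, adjusted p = 0.406 in edgeR) and Penk (0.28, SE 0.13, adjusted p = 0.43), both higher post-KD. Lamp5 had the next smallest p (0.29, SE 0.18, adjusted p = 0.743). Of 17 receptors and partners, 0 passed the adjusted threshold. Npy2r, at 6.85 reads a library, was higher post-KD and Adcyap1r1, a receptor that binds VIP and PACAP, was lower, both at an unadjusted p below 0.05 and with adjusted p of 0.26 and 0.434, and Vldlr, a reelin receptor, had the next smallest p (adjusted p = 0.762).

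Whether the regions differed in their post-KD change was tested directly, over 40 libraries with a term for each cohort. In edgeR 0 of 10 markers passed the adjusted threshold, against 0.0154% of 19422 genes, and 0 in DESeq2. At the unadjusted threshold 1 marker passed in both tools, against 2.22% of all genes in edgeR. This was Calb2, whose hippocampal change exceeded its frontal cortical change by 1.41 on the log2 scale (SE 0.50, p = 0.00495, adjusted p = 1). Leaving out each donor in turn gave differences from 0.88 (without donor 9, p = 0.0955) to 1.78 (without donor 2), and the difference was 0.54 (p = 0.35) without donors 9 and 10. The next markers by p were Npy (-0.32, SE 0.26) and Vip (-0.90, SE 0.74), with p of 0.212 and 0.224. Without donors 9 and 10 these differences were -0.54 (p = 0.0551) for Npy and -1.52 (p = 0.0548) for Vip, again unadjusted and from edgeR. Leaving out single donors, the Npy difference ranged from -0.56 (without donor 9, p = 0.0365) to -0.12 (without donor 4) and the Vip difference from -1.18 to -0.50.

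**Figure D5:**
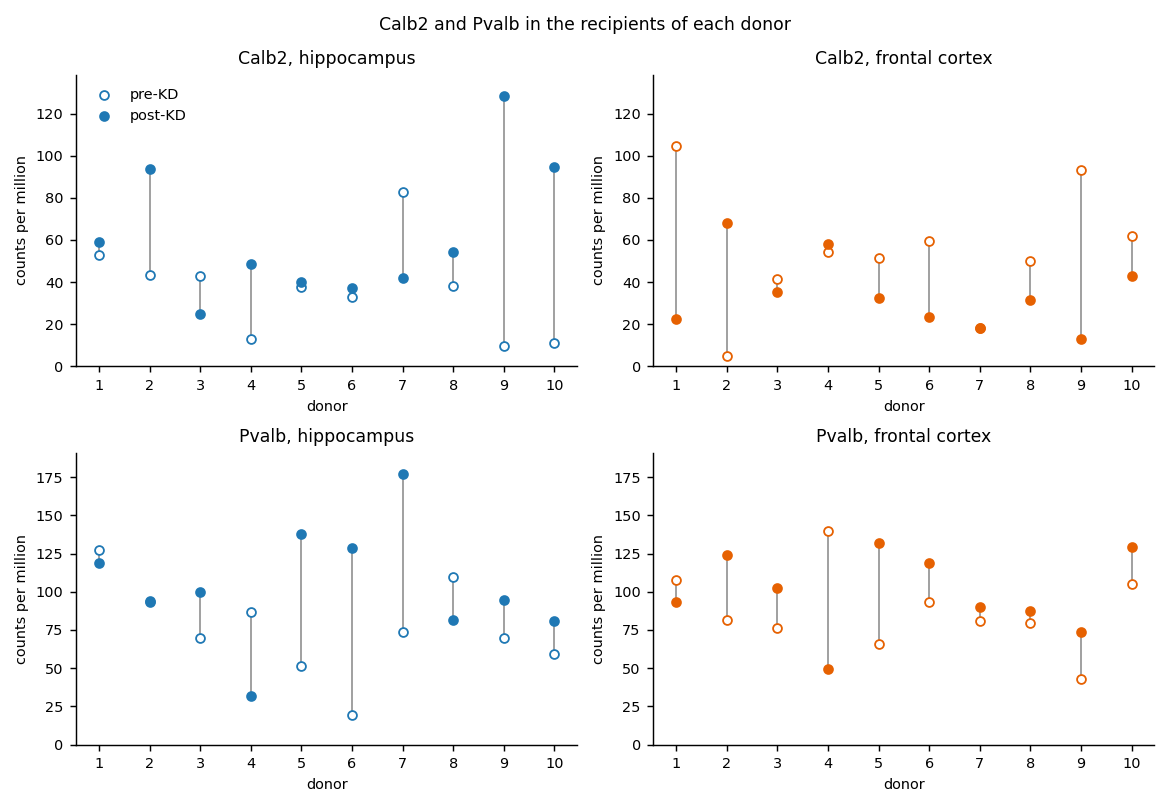
CPM of Calb2 (top) and Pvalb (bottom) in the pre-KD (open) and post-KD (filled) recipients of each of 10 donors (horizontal axis), joined by a grey line, in hippocampus (left, blue) and frontal cortex (right, orange). Calb2 was higher post-KD for 8 donors in hippocampus and for 3 in frontal cortex. Donors 9 and 10 hold its 2 lowest pre-KD and 2 highest post-KD hippocampal levels.

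In edgeR 0 of the 40 other interneuron genes passed the adjusted threshold for a difference between the regions' changes. At the unadjusted threshold 2 passed, against 2.22% of all genes tested. These were Syt2 (-1.49, SE 0.62) and Penk (-0.65, SE 0.31), both with an adjusted p of 1. Of 17 receptors and partners, 0 passed either threshold, and Npy2r, Tacr1 and Vldlr had the smallest p.

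Because both regions came from the same mice, the level of a marker in the 2 regions was also compared across the 20 cohorts, after removing the mean of each condition. None of the 10 correlations passed after adjustment over the 10. Cort had the smallest p (r = 0.43, permutation p = 0.0541, adjusted 0.541, and rho = 0.42, permutation p = 0.0644, adjusted 0.488), with r = 0.90 in pre-KD cohorts (n = 10), -0.05 in post-KD cohorts (n = 10) and 0.08 without the 2 cohorts farthest from the median. The relation of Cort thus rested on those cohorts. The pre-KD cohorts of donors 1 and 9 held no Cort read in either region. For Pvalb r was 0.34 (permutation p = 0.138, adjusted 0.574, and rho = 0.26, permutation p = 0.263, adjusted 0.548), with 0.08 pre-KD, 0.66 post-KD and 0.22 without the 2 cohorts. The other r ranged from -0.32 for Calb2 to 0.25 for Cck.

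The markers differed in how much their libraries varied. Within a region and condition, the coefficient of variation of CPM ran from 12.6% for Cck in pre-KD frontal cortex to 118% for Lhx6 in post-KD hippocampus. For Lhx6 the counting error alone came to 38.6% there, and for Cck to 3.84%. Over the 20 libraries of a region, the spread was between 2.51 times the counting error, for Cort in frontal cortex, and 5.37 times, for Calb2 in hippocampus. The libraries come from separate pools, so a spread above counting error says nothing of its source. Reads on Lhx6 and Reln share exon sequence with the overlapping genes Gm27953 and Gm10475, and as the strand setting of the counting is not given in the sources used here, their counts are uncertain to that extent.

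The genes whose levels followed each marker most closely were sought among 4814 genes averaging at least 50 reads. This was done over the 40 libraries after removing the mean of each region and condition. It is a description only, since the libraries share regions, cohorts and depth. For Tac1 they were Ptpn4 (r = 0.74), Penk (0.70) and Tmem179 (0.67). For Npy they were 2810004N23Rik (0.71), Scand1 (0.64) and Gap43 (0.64).
The closest to Sst were Ubl5 (0.71), Camk2a (0.68) and Mdga1 (0.67), and to Cck, Strap (0.59), Gm13889 (0.57) and Got2 (0.55). For Pvalb they were Dctn3 (0.65), Fam19a1 (0.60) and Rsbn1l (0.58), and for Calb2, Ncaph2 (0.55), Scg5 (0.53) and Ttc1 (0.52). Vip was followed most closely by Ing1 (0.70), Pcf11 (0.66) and Rab18 (0.62), and Reln by Tmbim6 (0.66), Nsf (0.64) and Rnf146 (0.62). The 10 markers themselves had been left out of the search. The low-count genes Cort and Lhx6 were closest to Polr2b (0.60), Rtl8b (0.52) and Ing2 (0.51), and to Rufy2 (0.62), Ubl4a (0.58) and Prkcsh (0.55).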

How the data were processed

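RNA-seq libraries were pooled from 6 mice per cohort. The authors deposited raw read counts per Ensembl gene, 1 table per region. The submitters' processing notes name STAR 2.5.2a, HTSeq 0.6.0 and mm10, whereas the key resources name HISAT2 and a QuantSeq kit beside the TruSeq kit of the methods. The annotation release is not given in the sources used here. Of 47643 gene IDs, 47224 matched GENCODE M21. Genes with at least 10 counts summed over a fit were tested with edgeR 4.0.16 (TMM, quasi-likelihood, R 4.3.3), with Benjamini-Hochberg adjustment over all genes and a threshold of 0.05. CPM are TMM-normalized, and log2 CPM used a prior count of 2. Permutation tests drew 100000 resamples. Sets of 10 libraries per group were compared post-KD against pre-KD within each region without a block, and between regions with a term for each cohort. Across 8157 genes, deviations from group means of a donor's 2 libraries within a region correlated with r of -0.0467 to 0.0322, and the donors pair the cohorts by design. For the 2 regions of a cohort, r ran from -0.0231 to 0.202 pre-KD and from -0.001 to 0.0502 post-KD. The code was tested on simulated data. Alternatives were DESeq2 1.42.0, no gene filter, filterByExpr, RLE size factors, leaving out the most abundant gene, the donor block, Y-linked and striatal covariates, limma-voom (limma 3.58.1) and leaving out each donor; leaving out donors 9 and 10 was added after the data had been seen. The markers and all lists were chosen with earlier results of these data known. The genes named are the 10 markers and, from each list, the 4 called genes with the largest fold in each direction averaging at least 20 counts, or else the 3 with the smallest p, and the 3 genes most like each marker; some genes that this rule names are not reported here. Replicates are separate cohorts.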

Additional observations from a re-analysis of the deposited data

Results flagged for a closer look

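In 5 of 40 sets of 10 libraries (a marker in a region and condition) 1 library stood apart from the other 9 by Dixon's criterion, which chance alone meets in about 1 of 20. Vip was at 77.4 CPM in the pre-KD hippocampus of donor 7's recipients, with the next library at 39.2 CPM. Lhx6 was at 17.5 CPM in the post-KD hippocampus of donor 3's recipients, next to 8.29 CPM. Reln, a secreted glycoprotein that guides neuronal layering, stood apart 3 times: at 110.6 CPM in the pre-KD hippocampus for donor 5 (next 62.2 CPM), at 175 CPM in the pre-KD frontal cortex for donor 1 (next 65.0 CPM), and low, at 28.5 CPM, in the post-KD frontal cortex for donor 9 (next 46.4 CPM).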

How the results depend on the processing

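Among the markers tested under each alternative run, the number called was 0 for both post-KD comparisons and for the difference between regions in the post-KD change, and 2, Tac1 and Npy, between the regions. The filterByExpr filter left Lhx6 untested in the hippocampal post-KD comparison, and Lhx6 and Cort in the frontal one, so its counts cover 9 and 8 markers. The replicate block, with the donor as a term, changed no call of a marker. The standard errors were widest for the low-count genes Cort and Lhx6.

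In the hippocampus, the 1 gene called of all genes became 0 with DESeq2, filterByExpr or either replicate block, 83 with the striatal covariate and 1291 without a gene filter, and 0 to 1 when each donor was left out. The 1 marker under an unadjusted p of 0.05 became 2 with limma-voom, 0 without donors 9 and 10, and 0 to 2 leaving out each donor. The 1762 genes under that p became 599 with DESeq2, 2931 without a filter, 221 with filterByExpr, 348 and 931 with the replicate block in edgeR and DESeq2, and 962 with limma-voom. In the frontal cortex, the 1 gene called became 2 with DESeq2, 3 with limma-voom, and 3 and 12 with the blocks. The 1 marker under the unadjusted p became 0 with DESeq2, filterByExpr, either block, the striatal covariate, limma-voom or without donors 9 and 10, and 0 to 2 leaving out each donor. The 1731 genes became 825, 3035, 407, 548, 1096 and 1071 in the order given for the hippocampus. Between regions, 554 genes called became 1033 with DESeq2 and 1935 without the block. For the difference in change, 3 became 0 with DESeq2 or filterByExpr and 348 without the block, the 1 marker under the unadjusted p became 0 without donors 9 and 10, and 431 genes became 949 with DESeq2 and 1767 without the block. The cause was not tested for any of these.

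Markers whose small log2 changes turned sign were never called. In the hippocampus these were Cort (-0.115 and -0.0705 with the blocks, -0.892 with limma-voom), Tac1 (0.79 with the striatal covariate) and Lhx6 (0.0174 with DESeq2, 0.0177 with RLE size factors, 0.152 with the striatal covariate, 0.0569 without donors 9 and 10). In the frontal cortex they were Npy (0.0002 with DESeq2, 0.0219 with the Y-linked covariate, 0.0369 with limma-voom), Vip (-0.0918 and -0.0785 with the blocks, -0.144 with limma-voom), Cck (0.016) and Reln (0.132), both with limma-voom, and Tac1 (0.0133 without donors 9 and 10). Between regions they were Sst (0.0176 with DESeq2, 0.0164 with RLE size factors, 0.0127 without the block) and Reln (0.0029 and 0.0018 with DESeq2 and RLE), and for the difference in change Tac1 (-0.15 without donors 9 and 10).

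Leaving out each donor in turn gave ranges that crossed 0 for Cck (-0.123 to 0.0118), Lhx6 (-0.52 to 0.29), Reln (-0.0082 to 0.46) and Tac1 (-0.47 to 0.33) in the hippocampus, and for Cck (-0.0741 to 0.0178), Npy (-0.0816 to 0.0493), Reln (-0.35 to 0.10), Tac1 (-0.249 to 0.0269) and Vip (-0.11 to 0.13) in the frontal cortex. Between regions they did so for Calb2 (-0.0207 to 0.323), Reln (-0.105 to 0.0909) and Sst (-0.091 to 0.0267), and for the difference in change for Cck (-0.129 to 0.0247), Cort (-0.17 to 0.84), Reln (-0.0267 to 0.426), Sst (-0.0404 to 0.162) and Tac1 (-0.42 to 0.50).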
